A study of Mus musculus with 11 samples.

Results

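Basic helix-loop-helix (bHLH) proteins are transcription factors that pair through their helix-loop-helix region and bind a short DNA motif, the E-box, through the basic region beside it. The 49 genes described here code for bHLH factors, for the Id proteins, which keep the helix-loop-helix but lack the basic region, and for Myc and its partners around Max. They were chosen by name, with earlier results of these data known, so the shares of them that pass a test below are a description, and all 49 symbols were found among the 54752 genes counted. Their expression was compared between neurons of the primary sensory nuclei of the thalamus in newborn mice: the dorsolateral geniculate (dLG, visual), the ventral posteromedial (VPM, somatosensory) and the ventral medial geniculate (MGv, auditory).

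Proneural factors such as Neurog2 commit dividing progenitors to a neuronal fate, and the Neurod and Nhlh factors act after them as neurons mature. These activators bind DNA together with the broadly expressed E proteins Tcf3, Tcf4 and Tcf12, which the Id proteins capture and hold away from DNA. Hes and Hey factors are repressors, many of them switched on by Notch signalling. Myc factors and the Mxd and Mxi repressors compete for Max, whereas the PAS domain branch includes partners that sense oxygen or run the circadian clock. Neurog2 is best known in this tissue from the progenitors and young neurons of the embryonic thalamus.

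The study dissected each nucleus at postnatal day 0 from mice of the outbred ICR/CD-1 strain, sorted the neurons by tdTomato fluorescence and sequenced their total RNA in 4 dLG, 4 VPM and 3 MGv libraries. Every mouse carried 1 Gbx2CreER-IRES-EGFP allele and 1 R26lsl-tdTomato allele (Gbx2CreER-IRES-EGFP/+::R26lsl-tdTomato/+). Thus the red label depended on a tamoxifen-dependent Cre driven by Gbx2, a gene whose own level was highest in MGv, with mean CPM, a gene's counts scaled to a common library total, of 29.4 in dLG, 35.3 in VPM and 304 in MGv. Each library pooled 4 brains, and the labels do not say whether replicates came from different litters or whether libraries with the same number shared animals, so the p-values measure the spread between these libraries. No treatment separated the groups, and genotype, strain and age were shared by all 11 libraries.

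Total counts ran from 10175653 to 23559130 per library and were lowest in MGv (10175653 to 13164909), so a count of 0 still allowed between 0.129 and 0.292 CPM (3 counts, counting error only). The relay neuron gene Slc17a6 was present in every library, with means of 537, 541 and 338 CPM in dLG, VPM and MGv, and the neuronal gene Rbfox3 ranged from 129.3 to 285 CPM. The inhibitory neuron marker Slc32a1 stayed at or below 0.0464 CPM, and the proliferation marker Mki67 averaged at most 0.301 CPM in any nucleus. Of 7 oligodendrocyte lineage genes, 5 stayed below 1 CPM everywhere, among them Sox10, which averaged at most 0.0227 CPM in any nucleus. The list nevertheless summed to 11.5 to 29.2 CPM in dLG, 31.75 to 39.8 in VPM and 72.3 to 85.05 in MGv. Its gene Mbp measured 5.25 to 20.06 CPM in dLG, 25.0 to 30.7 in VPM and 62.4 to 71.45 in MGv. Of 8 vessel markers, Cdh5 had no count and Cldn5 did not exceed 0.239 CPM, but the list summed to 6.32 to 10.7 CPM in dLG, 7.79 to 9.87 in VPM and 2.92 to 4.28 in MGv, and Tek, Kdr and Flt1 differed between nuclei. The astrocyte gene Slc1a3 averaged 72.5 CPM in MGv against 6.35 in dLG and 7.15 in VPM. In bulk samples of this kind, fewer cells of a type and less RNA per cell cannot be told apart. The libraries dLG 2, VPM 3 and MGv 1 stood apart from the other 8 by the heat shock gene Hspa8. It measured 3.05, 4.09 and 5.56 CPM in them against 159 to 581 CPM in the others. Some results below are given with and without these libraries. The dLG 3 library held hemoglobin RNA, with 118 CPM of Hba-a1 and 347 CPM of Hbb-bs against at most 0.172 and 0.183 CPM in the other dLG libraries.

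Levels can be compared between genes only per length, and RPKM, the CPM divided by the kilobases of annotated exon, are used for that purpose alone. Only 10 of the 49 genes exceeded 10 RPKM as a mean of the nuclei, and 17 were below 0.1 RPKM. Id2, Id4 and Hes6 headed the order. Id2 averaged 219 RPKM in dLG, 104 in VPM and 68.3 in MGv, Id4 averaged 156, 111 and 61.0 RPKM, and Hes6, which antagonizes Hes1, averaged 85.7, 85.0 and 126 RPKM. Next came Hes1, Mycn, Max, Hif1a, Mycl, Nhlh2 and Myc. Exons of all annotated transcripts were merged for these lengths, and thus the RPKM of genes with many alternative exons, such as Tcf4, Tcf12 and Clock, are low estimates. Exonic bases were shared with another gene for 13 of the 49, in 11 of them on the opposite strand, and reads there cannot be assigned to either gene where strand is not counted. The largest shares were in Hes5 (31.8%) and Bhlhe41 (19.1%).

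**Figure D1:**
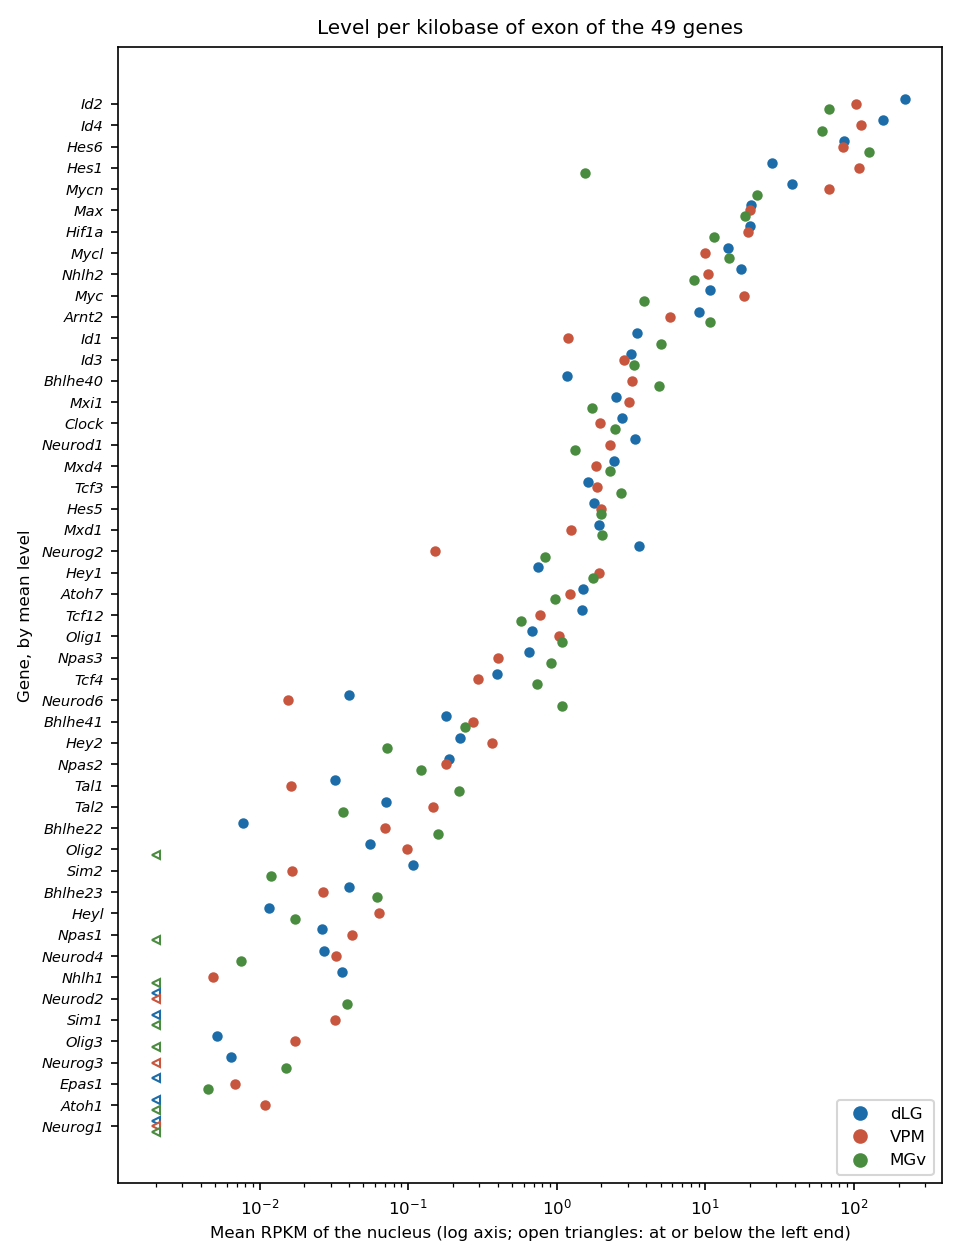
Mean RPKM of each of the 49 genes in each nucleus, on a log axis, with genes ordered by their mean over the nuclei and each nucleus in its own color. Id2 in dLG (219 RPKM) lies at the upper end, Neurog1 at the lower end with no count, and Hes1 spans 1.56 RPKM in MGv to 108 RPKM in VPM; open triangles mark values at or below the left end of the axis.

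Of the 49 genes, 32 had enough counts to be tested. A gene was called when edgeR's quasi-likelihood test gave a Benjamini-Hochberg adjusted p under 0.1 over all 15907 genes tested. Of the 32, 22 were called in at least 1 of the 3 contrasts, where 28.3% of all tested genes were. Between dLG and VPM, 12 were called (37.5% of the 32, against 10.7% of all genes), with 7 higher in dLG (4.97% of all genes) and 5 higher in VPM (5.74%). The dLG against MGv contrast had 16 calls (50.0%, against 16.1%), with 11 higher in dLG (8.61%) and 5 higher in MGv (7.49%). For VPM against MGv the number was 15 (46.9%, against 19.0%), 7 of them higher in VPM (10.4%) and 8 in MGv (8.56%). The genes therefore did not share a direction: their median log2 fold changes were 0.23, 0.11 and 0.05 in the order of these contrasts, beside 0.01, 0.02 and 0.02 over all genes tested. Their median absolute log2 fold changes were 0.59, 0.69 and 0.61.

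Leaving out 1 library at a time lowered the dLG against VPM count to 6 without VPM 1, to 7 without dLG 4 or VPM 2, and to 8 without dLG 1, dLG 3 or VPM 4. The dLG against MGv count fell to 11 without MGv 3, of which 10 were among the 16. Without the 3 libraries low in Hspa8, the counts were 11, 16 and 13, of which 10, 14 and 11 were among the calls above. With a covariate for these 3 libraries in place of leaving them out, 12, 17 and 18 of the genes were called.

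Enrichment in a nucleus was defined by a call and a higher level against both other nuclei. This held for 10 genes: Neurog2, Nhlh2, Tcf12 and Id2 in dLG (2.04% of all tested genes were enriched there), Hes1, Myc and Mycn in VPM (2.41%), and Neurod6, Tcf4 and Hes6 in MGv (3.66%). The reverse pattern, lowest by both contrasts, was found for Bhlhe40 in dLG (2.18% of all genes), for Neurog2, Id1, Mxd1 and Arnt2 in VPM (1.97%), and for Neurod1, Hes1, Myc, Mycn, Mxi1 and Hif1a in MGv (5.22%). Hence Neurog2, Hes1, Myc and Mycn had 3 distinct levels, with every contrast called. The number of enriched genes was 6 without MGv 3.

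**Figure D2:**
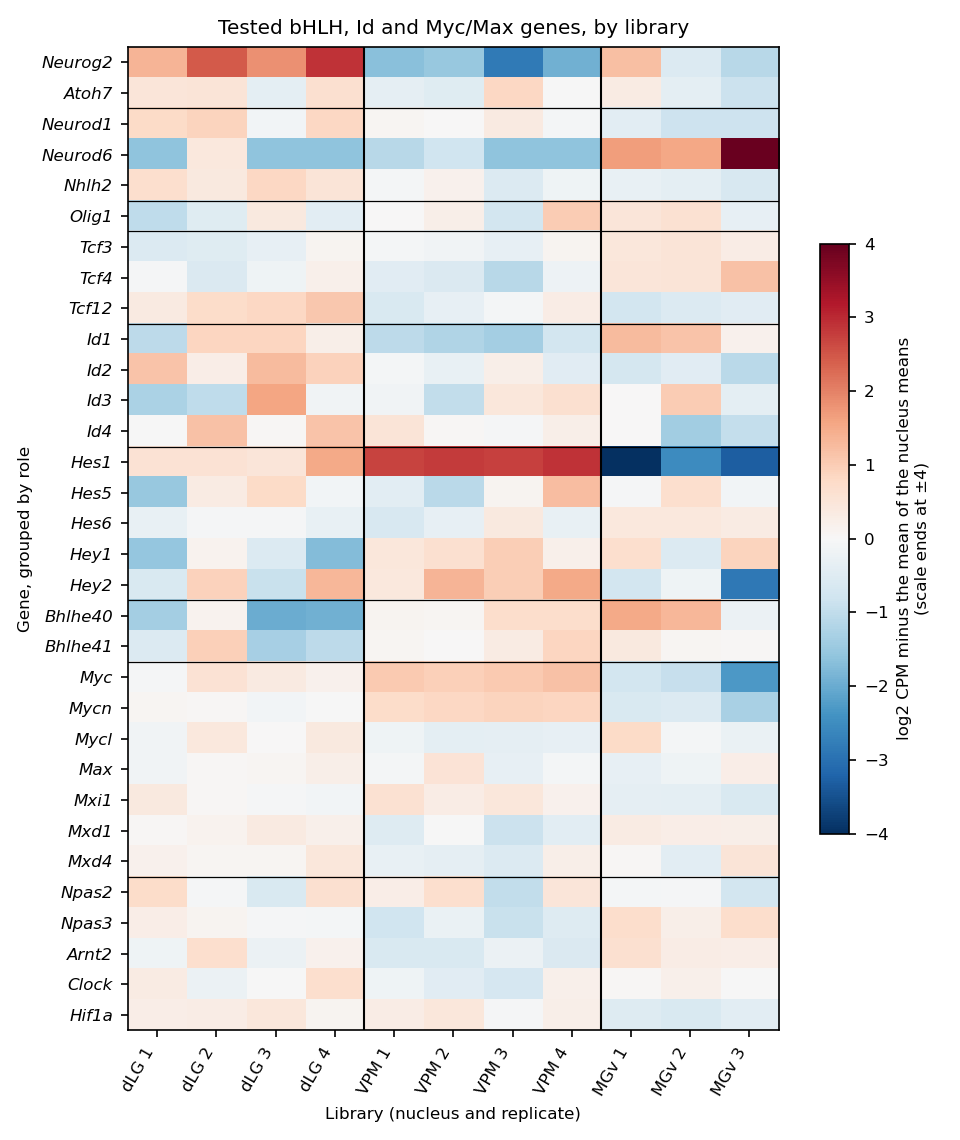
Log2 CPM of the 32 tested genes in each of the 11 libraries, minus the mean of the nucleus means of that gene, with the color scale ending at ±4 and genes grouped by role. Hes1 is high in the 4 VPM libraries and low in the 3 MGv libraries, Neurog2 is high in the 4 dLG libraries, and the high value of Neurod6 lies in MGv 3.

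**Figure D3:**
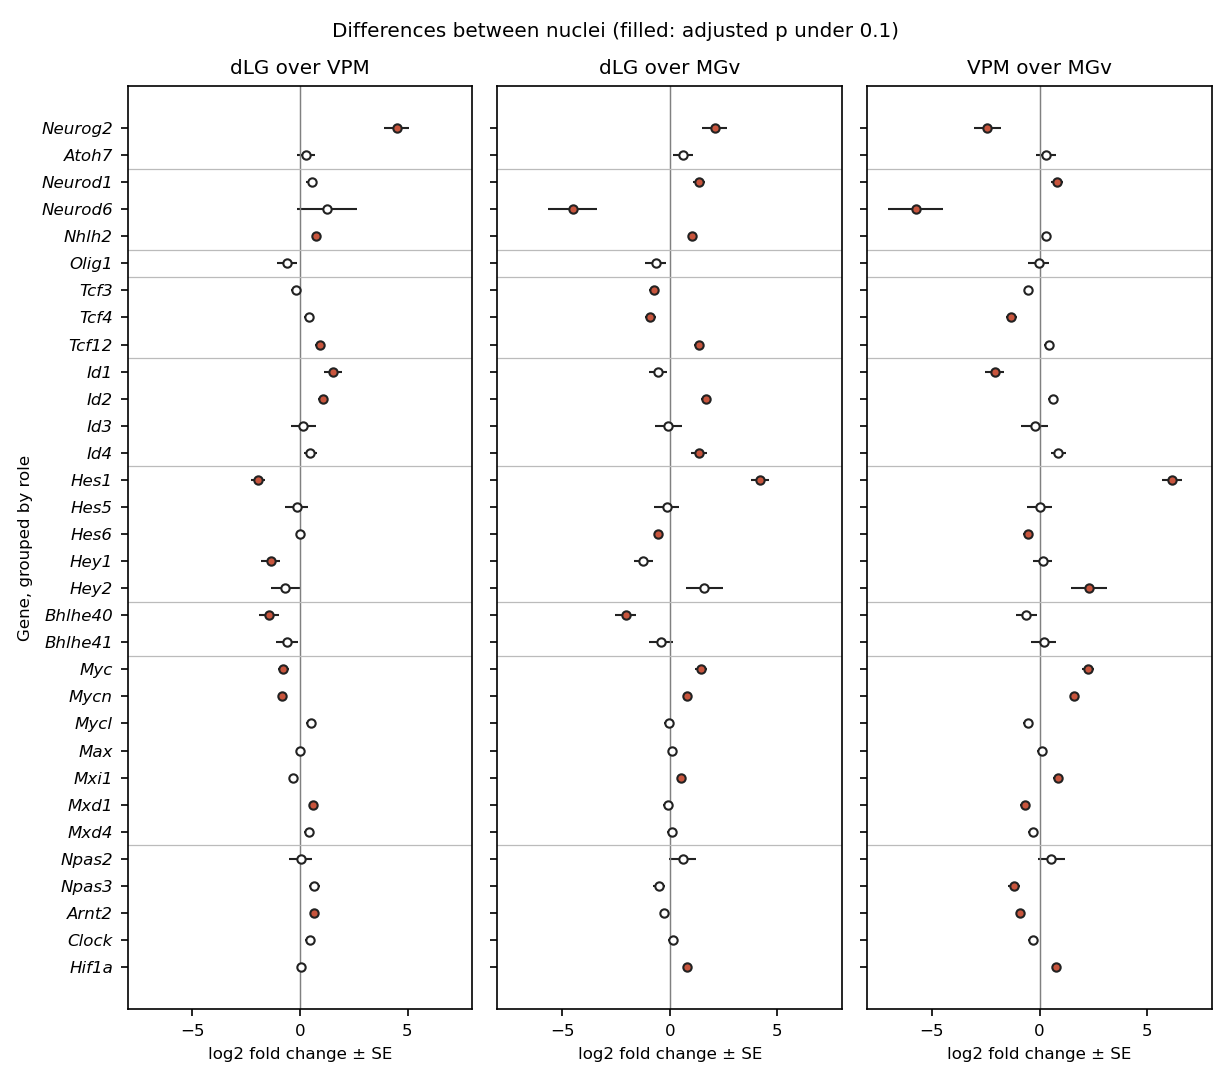
Log2 fold change with its standard error for the 32 tested genes in the 3 contrasts, where positive values are higher in the nucleus named first and filled points have an adjusted p under 0.1. Filled points number 12, 16 and 15 from left to right and lie on both sides of 0 in each panel.

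To show the DNA at the starts of these genes, stretches just upstream of the start site were taken from RefSeq for the mouse build GRCm38.p6. RefSeq windows were found for 38 of the 49 genes, 47 windows in all counting alternative starts. Both strands of the 250 bases before each start were searched for 4 motifs. The E-box, bound by most bHLH pairs, was searched as CANNTG. The form of it favored by Myc and Max, itself counted among the E-boxes, was searched as CACGTG. The N-box, bound by Hes factors, was searched as CACNAG. The core bound by RBPJ, the DNA-binding partner of Notch, was searched as TGGGAA. The E-box was in 63.8% of the genes' windows and in 66.2% of 32851 mouse windows, and the form favored by Myc in 6.38% and 6.02%. The N-box was in 25.5% against 36.7%, and the RBPJ core in 27.7% against 21.6%. These matches describe letters only and are not binding sites. The upstream stretches below are shown for Neurog2 and Nhlh2, both enriched in dLG, for Mycn, enriched in VPM, and for Hes5, a classical Notch target that was called in no contrast. Each runs 5′ to 3′ along the gene's strand, stops before the first annotated transcribed base, and has every match to these motifs in capitals.
Neurog2 (chr3:127632886-127633134, plus strand): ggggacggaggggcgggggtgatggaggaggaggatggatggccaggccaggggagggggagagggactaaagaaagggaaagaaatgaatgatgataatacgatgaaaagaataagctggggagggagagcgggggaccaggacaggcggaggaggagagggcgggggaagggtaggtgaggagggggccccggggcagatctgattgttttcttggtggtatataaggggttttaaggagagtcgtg
Nhlh2 (chr3:102009895-102010075, plus strand): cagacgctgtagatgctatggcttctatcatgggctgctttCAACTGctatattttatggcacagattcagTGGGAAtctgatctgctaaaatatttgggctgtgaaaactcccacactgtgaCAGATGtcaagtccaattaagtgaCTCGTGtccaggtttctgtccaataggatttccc
Mycn (chr12:12941915-12942086, minus strand): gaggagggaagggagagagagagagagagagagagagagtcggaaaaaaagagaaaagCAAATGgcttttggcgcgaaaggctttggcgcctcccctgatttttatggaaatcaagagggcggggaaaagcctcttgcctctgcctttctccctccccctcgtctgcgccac
Hes5 (chr4:154960673-154960922, plus strand): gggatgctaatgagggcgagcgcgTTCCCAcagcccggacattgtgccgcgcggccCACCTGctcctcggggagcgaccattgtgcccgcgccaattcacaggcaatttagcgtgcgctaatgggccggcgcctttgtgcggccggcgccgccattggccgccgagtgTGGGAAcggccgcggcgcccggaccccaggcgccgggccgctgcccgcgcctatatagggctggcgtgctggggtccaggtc
The Neurog2 stretch had none of these motifs. The Nhlh2 stretch held 2 E-boxes, 1 N-box and 1 RBPJ core, with a further core at position -74 that runs past its end, and the Mycn stretch held 1 E-box, at -192 from its RefSeq start. In Hes5, RBPJ cores lay at -226 and -82 and an E-box at -194.

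Among the proneural and atonal related genes, Neurog2 set dLG apart. It measured 4.20, 9.24, 5.88 and 12.6 CPM in the dLG libraries, 0.417, 0.476, 0.124 and 0.333 in VPM and 3.83, 1.05 and 0.680 in MGv (replicates in order, here and throughout). All dLG libraries were above all MGv libraries, which were in turn above all VPM libraries, although MGv 1 lay just under the lowest dLG library. Its log2 fold change was 4.50 ± 0.59 (SE) for dLG over VPM (adjusted p = 0.000292, edgeR's quasi-likelihood test), 2.08 ± 0.57 for dLG over MGv (0.0281) and -2.42 ± 0.62 for VPM over MGv (0.0194). The last of these was lost without MGv 1 (0.207) and without the 3 libraries low in Hspa8 (0.276), and the dLG against MGv difference was lost without MGv 2 (0.109) or MGv 3 (0.111). The dLG against VPM difference was called in every fit that tested Neurog2. The gene lies on chromosome 3 (127633135 to 127635631, plus strand), where its exons overlap those of no other gene.

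Atoh7, known for the birth of retinal ganglion cells, was the other tested gene of this group. It ranged from 0.972 to 3.41 CPM over all libraries, was highest in VPM 3, and was called in no contrast. Neurog1, Neurog3 and Atoh1 were too low to test, and Neurog1 had no count in any library, which allowed at most 0.129 to 0.292 CPM.

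Of the neuronal differentiation genes, Nhlh2 was the most abundant and was enriched in dLG. Its values were 99.1, 81.1, 109 and 88.3 CPM in dLG, 59.0, 69.4, 42.7 and 54.9 in VPM and 50.1, 46.9 and 39.3 in MGv. The dLG libraries lay above all others, whereas VPM and MGv overlapped. The log2 fold change was 0.74 ± 0.16 over VPM (edgeR adjusted p = 0.0110) and 1.05 ± 0.18 over MGv (0.00132). The difference between VPM and MGv was 0.31 ± 0.17 (0.264).

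Neurod1, which drives neuronal maturation, was lowest in MGv. It measured 9.92, 11.0, 5.45 and 10.4 CPM in dLG, 6.16, 5.93, 7.44 and 5.56 in VPM and 4.36, 3.25 and 3.21 in MGv. The 3 MGv libraries were below the other 8, and dLG 3 fell below all 4 VPM libraries while the other dLG libraries were above them. The dLG over MGv log2 fold change was 1.34 ± 0.28 (edgeR adjusted p = 0.00621) and the VPM over MGv change was 0.79 ± 0.28 (0.0810). The latter was lost without any one of dLG 1, MGv 2, MGv 3, VPM 1, VPM 2 or VPM 3 (adjusted p 0.101 to 0.206) and without the 3 libraries low in Hspa8 (0.116). Of its exonic bases, 7.37% are shared with Cerkl on the same strand.

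Neurod6, a gene of cortical and hippocampal excitatory neurons, was detected mainly in MGv, at low counts. The MGv libraries measured 0.977, 0.878 and 5.15 CPM, dLG 2 measured 0.344 and the other dLG libraries 0, and VPM 1 and VPM 2 measured 0.0464 and 0.0866 while VPM 3 and VPM 4 were at 0. All MGv libraries were thus above the other 8, with MGv 3 well above its replicates. Summed over libraries, 76 counts in MGv stood against 8 in dLG, a rate ratio of 21.4, and against 3 in VPM, a rate ratio of 59.2. Of the 76 counts, 53 were in MGv 3, and all 8 of dLG were in dLG 2. Counts from amplified cDNA are not independent, so these ratios are given without an interval. The edgeR adjusted p was 0.0182 against dLG and 0.00849 against VPM, and the former was lost without MGv 3 (0.161). Without the 3 libraries low in Hspa8, the log2 fold change was -8.76 for dLG over MGv (edgeR adjusted p = 0.00588). All remaining dLG libraries were then at 0. That of VPM over MGv was -5.86 (0.0128). Among genes of cortical and hippocampal neurons, Emx1 was at 0 in all MGv libraries, and Tbr1 averaged 1.39, 1.80 and 0.234 CPM in dLG, VPM and MGv. The summed level of the 8 genes of that list, Neurod6 included, was 1.14 to 2.49 CPM in dLG, 2.94 to 4.22 in VPM and 1.76 to 5.44 in MGv, and the part of such cells in the Neurod6 values was not tested. Neurod2, Neurod4 and Nhlh1 did not exceed 0.301 CPM.

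The E proteins, the partners of these activators, moved in opposite directions. Tcf12 was enriched in dLG, with 17.1, 22.2, 23.9 and 28.2 CPM in dLG, 8.76, 10.5, 12.5 and 16.4 in VPM and 7.96, 9.13 and 9.72 in MGv. All dLG libraries were above all others. Its log2 fold change was 0.93 ± 0.22 over VPM (edgeR adjusted p = 0.0182) and 1.35 ± 0.25 over MGv (0.00233).

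Tcf4, an E protein abundant in the developing brain, was enriched in MGv instead. It measured 16.7, 17.1 and 27.0 CPM in MGv against 11.5, 7.91, 10.4 and 13.7 in dLG and 8.67, 7.96, 5.40 and 10.3 in VPM. Every MGv library was above every other library, and MGv 3 was the highest. Its log2 fold changes were -0.90 ± 0.26 for dLG over MGv (edgeR adjusted p = 0.0408, 0.213 without MGv 3) and -1.32 ± 0.26 for VPM over MGv (0.00491). Tcf3 averaged 6.58 ± 1.43 CPM in dLG (SD, n = 4), 7.56 ± 0.990 in VPM (n = 4) and 10.9 ± 0.892 in MGv (n = 3), and was called only for dLG against MGv, at -0.72 ± 0.22 (0.0498). That call was lost without dLG 1, MGv 1 or MGv 2 (adjusted p 0.116 to 0.140) and without the 3 libraries low in Hspa8 (0.115).

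Among the Id inhibitors, Id2 and Id4 had their highest means in dLG and Id1 and Id3 in MGv. Id2 was enriched in dLG and measured 607, 333, 671 and 529 CPM there, 265, 227, 323 and 199.9 in VPM and 169.7, 200.3 and 129.6 in MGv. The lowest dLG library, dLG 2, was above the highest VPM library, VPM 3, by a small margin, and VPM 4 reached into the MGv range. The log2 fold change was 1.08 ± 0.22 over VPM (edgeR adjusted p = 0.00713) and 1.68 ± 0.24 over MGv (0.000429), and that of VPM over MGv was 0.61 ± 0.23 (0.107).

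Id4, which is prominent in neural progenitors and astrocytes, varied more among replicates. It measured 363, 838, 383 and 824 CPM in dLG, 535, 384, 361 and 436 in VPM and 372, 142 and 191 in MGv. In dLG, replicates 2 and 4 were above every other library and replicates 1 and 3 were within the VPM range, and MGv 1 overlapped both other nuclei. The dLG over MGv log2 fold change was 1.36 ± 0.36 (edgeR adjusted p = 0.0224), and 0.110 without MGv 3. The other contrasts were not called, but without the 3 libraries low in Hspa8 the VPM over MGv change was 1.43 (adjusted p = 0.0193), and with a covariate for them 1.03 (0.0443).

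Id1 had another order and was lowest in VPM. It measured 1.40, 5.59, 5.50 and 3.53 CPM in dLG, 1.39, 1.26, 1.12 and 1.76 in VPM and 7.44, 6.76 and 3.40 in MGv. The 4 VPM libraries lay below all MGv libraries, whereas dLG 1 fell within the VPM range. On the log2 scale, the fold change was 1.53 ± 0.42 for dLG over VPM (edgeR adjusted p = 0.0379) and -2.08 ± 0.44 for VPM over MGv (0.00706). The former was lost without dLG 3, VPM 1 or VPM 2 (adjusted p 0.104 to 0.108) and without the 3 libraries low in Hspa8 (0.133). Id3 ranged from 1.89 to 14.3 CPM, both in dLG, and was called in no contrast. The highest value was in dLG 3, the library with hemoglobin RNA. Of the dLG libraries, it also had the most of the astrocyte genes Aqp4 (1.58 CPM), Aldh1l1 (5.18 CPM), Gja1 (1.09 CPM) and Fabp7 (121.5 CPM). Other genes of that list peaked elsewhere in dLG: Slc1a3 (17.9 CPM) and Aldoc (11.8 CPM) in dLG 2, Slc1a2 (32.8 CPM) in dLG 4 and S100b (1.52 CPM) in dLG 1. The part of other cells in the Id3 value was not tested.

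Summed per length, the 4 Id genes reached 382 ± 39.9 RPKM in dLG (SD, n = 4), 220 ± 26.4 in VPM (n = 4) and 138 ± 34.5 in MGv (n = 3). Id2 and Id4 made up at least 91.4% of that sum in any library. The 3 E protein genes summed to 3.50 ± 0.688, 2.94 ± 0.456 and 4.01 ± 0.134 RPKM. The ratio of Id to E protein RPKM was 98.0 to 120 in dLG, 55.7 to 90.6 in VPM and 26.4 to 45.5 in MGv, and the nuclei did not overlap. The ratio is an overestimate where merged exon lengths understate Tcf4 and Tcf12, and it describes RNA and not protein. Summed progenitor markers, among them Sox2 and Pax6, were also highest in dLG, at 293 to 352 CPM against 188 to 237 in VPM and 215 to 253 in MGv, with 3 of these 12 genes below 1 CPM everywhere. The part of such cells in the Id values was not tested.

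**Figure D4:**
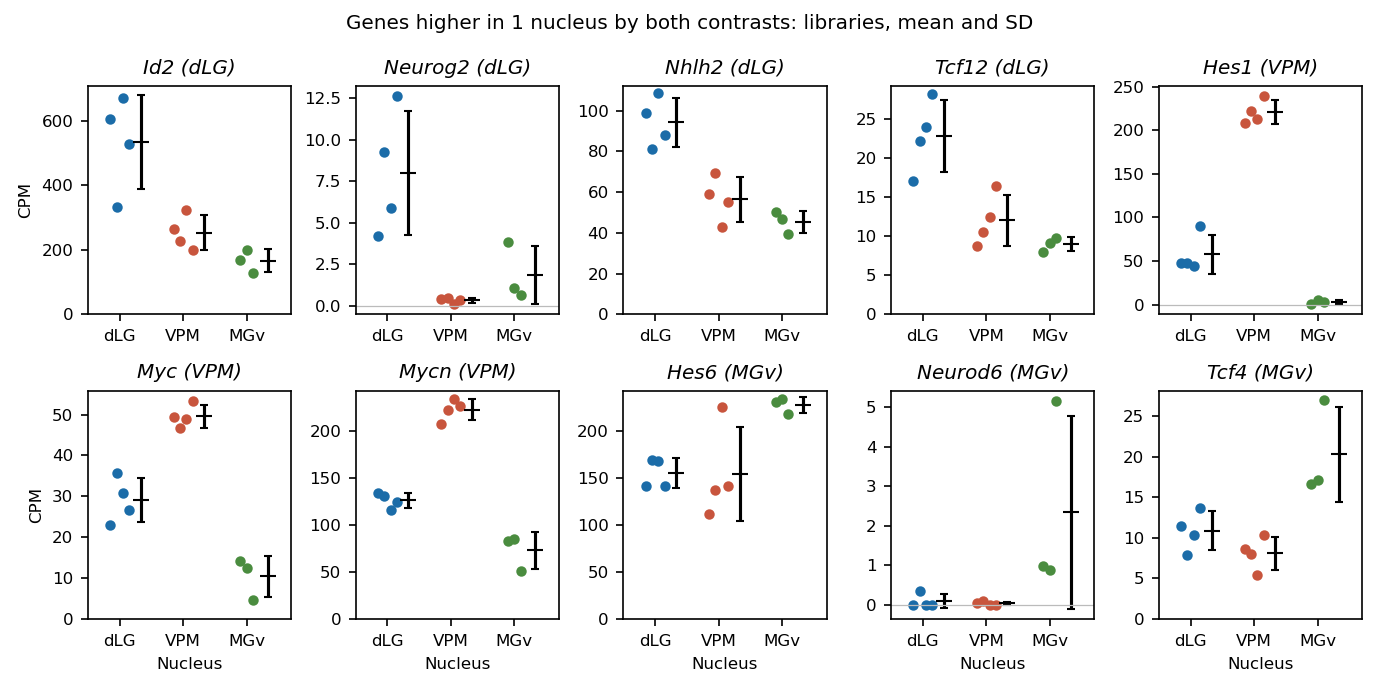
CPM of the 10 genes enriched in 1 nucleus, which is named in brackets, with a point per library and the mean ± SD beside the points of each nucleus (n = 4, 4 and 3). Hes1 separates all 3 nuclei, from at most 5.44 CPM in MGv to at least 208 CPM in VPM, and the Neurod6 mean in MGv rests largely on the library at 5.15 CPM.

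Hes1, a repressor that keeps progenitors undifferentiated and is a main target of Notch, had the largest fitted fold change of the 32 tested genes between VPM and MGv. Hes1 measured 208, 223, 213 and 239 CPM in VPM, 47.6, 47.7, 44.5 and 90.7 in dLG and 0.977, 5.44 and 3.11 in MGv. The nuclei did not overlap, and dLG 4 lay well above the other dLG libraries. The log2 fold change was -1.94 ± 0.31 for dLG over VPM (edgeR adjusted p = 0.00155), 4.20 ± 0.42 for dLG over MGv (2.21e-05) and 6.14 ± 0.45 for VPM over MGv (1.90e-06), the last being a 70.4-fold difference. All 3 calls held in every fit, with any library left out. The gene lies on chromosome 16 (30064384 to 30067796, plus strand), and its exons overlap no other gene.

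Among the other Notch-responsive repressors, Hes5 averaged 2.44 ± 1.37, 2.72 ± 2.04 and 2.72 ± 0.913 CPM (SD, n = 4, 4 and 3) in dLG, VPM and MGv and was called in no contrast, and 31.8% of its exonic bases are shared with Gm20421 on the opposite strand. Hey1, which acts in vessels and neural progenitors, measured 1.34, 4.51, 2.78 and 1.15 CPM in dLG, 5.70, 6.53, 8.25 and 4.80 in VPM and 6.69, 2.81 and 7.78 in MGv. All VPM libraries were above all dLG libraries, and MGv spanned both. The dLG over VPM log2 fold change was -1.36 ± 0.43 (edgeR adjusted p = 0.0753), lost without any one of dLG 1, dLG 3, dLG 4, VPM 1, VPM 2 or VPM 3 (0.121 to 0.192). The vessel receptor genes Kdr and Flt1 had the same order of means, at 0.0718, 2.098 and 0.706 CPM for Kdr and 0.166, 1.06 and 0.213 CPM for Flt1 in dLG, VPM and MGv, and both were called between dLG and VPM (0.00500 and 0.0747). Other genes of the vessel list had other orders. Tek reached 5.488 CPM in dLG, 1.9 in VPM and 0.2633 in MGv, and Pdgfrb reached 5.113, 3.846 and 1.953 CPM. Rgs5 peaked in VPM, at 1.489 CPM against at most 0.7915 in dLG and 0.6804 in MGv. Of the 8 genes, 3 stayed below 1 CPM everywhere. The part of vessel cells in the Hey1 values was not tested.

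Hey2, a close relative of Hey1, was near the limit of the counts. It measured 0.973, 1.99, 1.49 and 2.24 CPM in VPM, 0.426, 1.42, 0.327 and 1.96 in dLG and 0.376, 0.614 and 0 in MGv, with no count in MGv 3. The VPM libraries were above the MGv libraries, and dLG overlapped both. The VPM over MGv log2 fold change was 2.29 ± 0.84 (edgeR adjusted p = 0.0932). It was lost without any one of dLG 2, MGv 1, MGv 3 or the 4 VPM libraries (0.102 to 0.215) and without the 3 libraries low in Hspa8 (0.191). Heyl did not exceed 0.476 CPM.

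Hes6, which promotes neuronal differentiation by antagonizing Hes1, was highest in MGv. Its values were 230.2, 234 and 217 CPM in MGv, 141, 169, 168 and 142 in dLG and 111, 137, 225 and 142 in VPM. VPM 3 reached into the MGv range, and all other VPM and dLG libraries were lower. This gave a log2 fold change of -0.55 ± 0.19 for dLG over MGv (edgeR adjusted p = 0.0872) and -0.56 ± 0.19 for VPM over MGv (0.0728). The first call was lost without any one of the 4 dLG libraries, the 3 MGv libraries or VPM 2 (0.101 to 0.211), and the second without any one of dLG 1, the 3 MGv libraries, VPM 1, VPM 2 or VPM 4 (0.110 to 0.198). Without the 3 libraries low in Hspa8, the changes were -0.60 (0.0161) and -0.81 (0.00386).

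Bhlhe40, a repressor induced by light, hypoxia and neuronal activity, was lowest in dLG. It measured 4.20, 12.3, 2.72 and 2.86 CPM in dLG, 12.0, 11.8, 18.2 and 18.3 in VPM and 31.8, 27.8 and 9.43 in MGv. The dLG 2 library fell within the range of VPM, and MGv 3 lay below all VPM libraries. The log2 fold change was -2.05 ± 0.50 for dLG over MGv (edgeR adjusted p = 0.0150) and -1.43 ± 0.47 for dLG over VPM (0.0865), the latter lost without any one of dLG 1, dLG 3, dLG 4, MGv 2 or the 4 VPM libraries (0.107 to 0.216). Its relative Bhlhe41 ranged from 0.490 to 2.79 CPM and was called in no contrast. The highest dLG value of both genes was in dLG 2, and that of Bhlhe40 in MGv was in MGv 1, both among the libraries low in Hspa8. Without those libraries, Bhlhe40 differed by -2.53 for dLG over MGv (edgeR adjusted p = 0.00230) and -2.11 for dLG over VPM (0.00560).

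In the Myc and Max network, the Myc genes differed while Max did not pass the test in any contrast. Mycn, the Myc gene of embryonic neural tissue, measured 208, 223, 234 and 227 CPM in VPM, 134, 131, 117 and 125 in dLG and 83.6, 85.5 and 50.8 in MGv. The 3 nuclei did not overlap. Expressed as log2 fold change, the difference was -0.82 ± 0.15 for dLG over VPM (edgeR adjusted p = 0.00403), 0.79 ± 0.17 for dLG over MGv (0.00597) and 1.61 ± 0.17 for VPM over MGv (3.57e-05). All 3 calls held with any library left out. The gene lies on chromosome 12 (12936093 to 12941914, minus strand).

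Myc, the founding member of the family, had the same order at a lower level. It measured 49.5, 46.7, 48.9 and 53.4 CPM in VPM, 23.1, 35.6, 30.8 and 26.7 in dLG and 14.2, 12.5 and 4.76 in MGv, again with no overlap. The log2 fold change was -0.77 ± 0.25 for dLG over VPM (edgeR adjusted p = 0.0805), 1.46 ± 0.29 for dLG over MGv (0.00374) and 2.23 ± 0.29 for VPM over MGv (0.000200). The dLG against VPM call was lost without any one of dLG 1, dLG 3, dLG 4, VPM 1, VPM 2 or VPM 4 (0.135 to 0.206), and thus the count of Myc among the VPM-enriched genes rests on all of these libraries. The third family gene, Mycl, averaged 57.3 ± 10.9, 40.4 ± 2.58 and 58.2 ± 24.0 CPM (SD, n = 4, 4 and 3) in dLG, VPM and MGv and was called in no contrast.

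Max, the obligate partner, ranged from 55.0 to 100.3 CPM, both in VPM, with a largest log2 fold change of 0.12 ± 0.20 (dLG over MGv). Per length, the 3 Myc genes summed to 63.3 ± 4.68 RPKM in dLG (SD, n = 4), 96.0 ± 3.10 in VPM (n = 4) and 40.5 ± 12.2 in MGv (n = 3). Their sum was 2.80 to 3.50 times the Max level in dLG, 3.39 to 6.45 times in VPM and 1.18 to 3.38 times in MGv, with dLG overlapping both other nuclei.

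Of the repressors that share Max, Mxi1 averaged 17.1 ± 2.79 CPM in dLG (SD, n = 4), 21.0 ± 2.78 in VPM (n = 4) and 11.8 ± 1.07 in MGv (n = 3), below both other nuclei. Its log2 fold change was 0.83 ± 0.19 for VPM over MGv (edgeR adjusted p = 0.0114) and 0.53 ± 0.19 for dLG over MGv (0.0924), and the latter was lost without any one of 9 of the 11 libraries, all but dLG 4 and VPM 3 (0.109 to 0.252), and without the 3 libraries low in Hspa8 (0.120). Mxd1 was lowest in VPM, at 8.88 ± 2.16 CPM against 13.5 ± 1.30 in dLG and 14.4 ± 0.491 in MGv. Its log2 fold change was 0.60 ± 0.19 for dLG over VPM (0.0805) and -0.69 ± 0.21 for VPM over MGv (0.0440). The former was lost without any one of 9 libraries, all but MGv 3 and VPM 2 (0.109 to 0.204), the latter without MGv 1 (0.122) or VPM 1 (0.108), and without the 3 libraries low in Hspa8 they were 0.133 and 0.124. Mxd4 averaged 20.6 ± 2.67, 15.5 ± 3.78 and 19.3 ± 6.31 CPM and was called in no contrast.

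**Figure D5:**
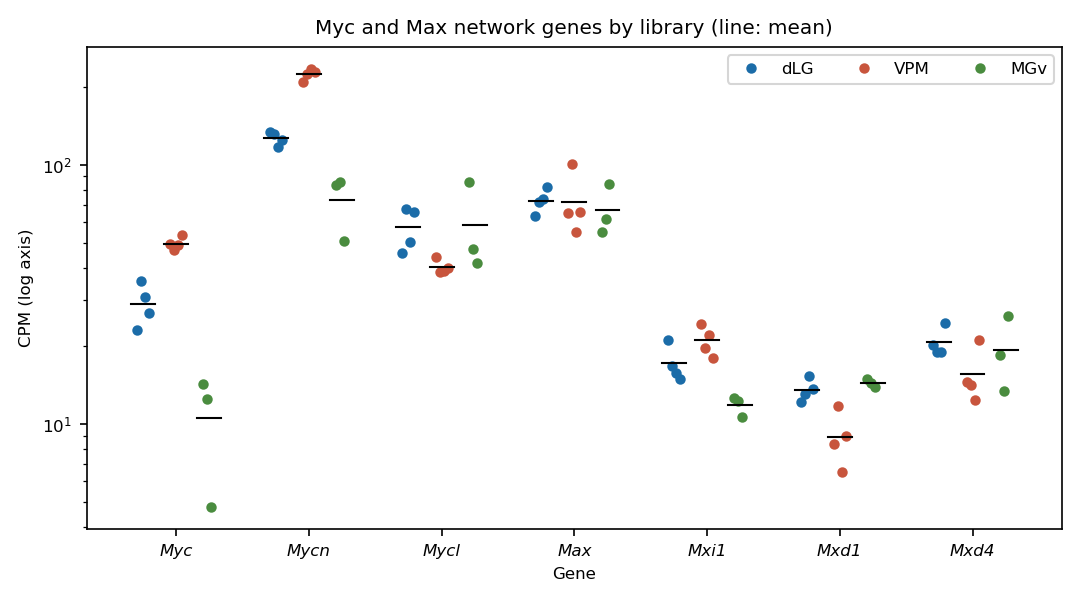
CPM of the 7 genes of the Myc and Max network on a log axis, with a point per library and a line at the mean of each nucleus. Myc and Mycn are ordered VPM, dLG, MGv without overlap, whereas the Max libraries of the 3 nuclei overlap between 55.0 and 100.3 CPM.

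Of the PAS domain factors, Hif1a, the oxygen-regulated subunit of the hypoxia factor, was lowest in MGv. It averaged 117 ± 10.8 CPM in dLG (SD, n = 4), 114 ± 15.8 in VPM (n = 4) and 67.2 ± 4.17 in MGv (n = 3), and the 3 MGv libraries were below the other 8. Its log2 fold change was 0.80 ± 0.14 for dLG over MGv (edgeR adjusted p = 0.00198) and 0.76 ± 0.14 for VPM over MGv (0.00315). Arnt2, the common partner of this branch in neurons, was lowest in VPM at 44.3 ± 6.09 CPM, against 69.7 ± 21.0 in dLG and 82.7 ± 12.0 in MGv. It differed by -0.90 ± 0.20 between VPM and MGv (0.0105) and by 0.65 ± 0.19 between dLG and VPM (0.0545). The second call was lost without any one of dLG 2, dLG 4, VPM 1, VPM 2 or VPM 4 (0.117 to 0.161), and dLG 2 held the highest value, 99.1 CPM. Without the 3 libraries low in Hspa8, dLG 2 included, the changes were -0.89 (0.00298) and 0.54 (0.0257).

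Npas3, a factor of developing neurons and glia, had its highest mean in MGv. It measured 6.09, 4.39 and 6.03 CPM in MGv, 4.44, 4.00, 3.60 and 3.48 in dLG and 2.09, 3.07, 1.92 and 2.57 in VPM, and the VPM libraries were below all others. The VPM over MGv log2 fold change was -1.18 ± 0.28 (edgeR adjusted p = 0.0130). Clock, the central activator of the circadian clock, ranged from 19.97 to 51.2 CPM, and its relative Npas2 from 0.310 to 1.28 CPM. Neither was called in any contrast. Npas1, Sim1, Sim2 and Epas1 were not tested.

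The 10 tested genes called in no contrast were Atoh7, Olig1, Id3, Hes5, Bhlhe41, Mycl, Max, Mxd4, Npas2 and Clock. Their largest absolute log2 fold change was 0.65 and their smallest adjusted p was 0.141 (edgeR), which does not show that they were equal between nuclei. Olig1, of the Olig group known from motor neuron and oligodendrocyte progenitors, ranged from 0.852 to 3.85 CPM, while Olig2 did not exceed 0.390 CPM and Olig3 0.143 CPM. Bhlhe22 reached 0.902 CPM in MGv 1 and 0.702 CPM in MGv 2 and was at 0 in MGv 3.

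Of the 17 genes not tested, 15 stayed below 1 CPM in every library. The exceptions were Tal1, a factor of blood and inhibitory neuron lineages, with 2.04 CPM (21 counts) in MGv 3 and at most 0.601 elsewhere, and Sim1, of hypothalamic neurons, with 1.05 CPM (17 counts) in VPM 3 and at most 0.0464 elsewhere. In each case a single library carried the value, and VPM 3 was among the libraries low in Hspa8. Sim2 was higher in every dLG library, at 0.304, 0.215, 0.545 and 0.764 CPM, than in any VPM or MGv library, where it reached at most 0.185 CPM, but it did not pass the count filter.

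Related genes gave a setting for these differences. Of 58 other bHLH genes, 34 were tested and 1, 5 and 2 were called in the order of contrasts given above (2.94, 14.7 and 5.88%, against 10.7, 16.1 and 19.0% of all genes), with median log2 fold changes of 0.03, 0.02 and -0.12. The activity-induced factor Npas4 averaged 27.9 CPM in MGv against 3.91 in dLG and 4.95 in VPM, a log2 fold change of -2.81 ± 0.73 for dLG over MGv (edgeR adjusted p = 0.0208) and -2.50 ± 0.72 for VPM over MGv (0.0351). Hes3 was higher in MGv than in dLG, by 2.06 ± 0.56 on the log2 scale (0.0279). The clock gene Arntl, which pairs with Clock, averaged 79.5 CPM in dLG, 44.7 in VPM and 49.2 in MGv and was higher in dLG by both contrasts (adjusted p 0.00755 and 0.0247).

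Of 19 Notch pathway genes, 16 were tested and 4, 3 and 3 were called in the same order of contrasts (25.0, 18.8 and 18.8%, against 10.7, 16.1 and 19.0% of all genes), with median log2 fold changes of 0.19, -0.15 and -0.35. None of them had the order of Hes1, with VPM highest and MGv lowest in called contrasts. The coactivator gene Maml3 averaged 28.4 CPM in MGv, 13.0 in dLG and 7.95 in VPM (VPM over MGv log2 fold change -1.83 ± 0.24, edgeR adjusted p = 0.000205). The ligand gene Dll4 averaged 2.303 CPM in MGv, 1.63 in dLG and 0.602 in VPM (VPM over MGv -1.94 ± 0.43, 0.00923), and Maml2 was higher in MGv than in dLG (-1.35 ± 0.35, 0.0221).

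Of 14 circadian clock partners, all tested, 3, 2 and 2 were called (21.4, 14.3 and 14.3%, against the same shares of all genes), with median log2 fold changes of 0.08, -0.04 and -0.13. The output gene Hlf averaged 26.2 CPM in dLG, 12.2 in VPM and 2.62 in MGv (dLG over MGv 3.29 ± 0.41, edgeR adjusted p = 0.000135), and Dbp averaged 9.31, 4.15 and 9.44 CPM. Of 16 regulators and targets of the hypoxia factor, 13 were tested, with medians of 0.13, 0.20 and 0.21 in the 3 contrasts. Between dLG and MGv, 1 was called, higher in dLG (7.69%, against 16.1% of all genes). Between VPM and MGv, 2 were called (15.4%, against 19.0%), 1 higher in VPM and 1 higher in MGv. Egln2, on this list, measured 149 to 170 CPM in MGv against 115 to 131 in VPM. Ndrg1, a hypoxia-induced gene, was, like Hif1a, lower in MGv than in each other nucleus, with means of 184, 140 and 67.0 CPM in dLG, VPM and MGv (dLG over MGv 1.46 ± 0.26, 0.00230, VPM over MGv 1.06 ± 0.26, 0.0163).

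Genes induced by cell dissociation and activity also differed between the nuclei. The 11 genes of that list, Fos, Jun and Egr1 among them, summed to 739 to 1135 CPM in dLG, 385 to 723 in VPM and 837 to 1141 in MGv. Hspa8 is one of them, and without it the other 10 summed to 480 to 736, 283 to 381 and 612 to 832 CPM. Of the 11, 5 were lower in VPM than in dLG and 6 lower than in MGv by the same test, where 4.97% and 8.56% of all genes were, and Fos averaged 210 CPM in dLG, 77.8 in VPM and 282 in MGv. Neurog2, Id1, Mxd1 and Arnt2 were lowest in VPM too, whereas Hes1, Myc and Mycn were highest there. The part of this response in the differences of these genes was not tested. Astrocyte markers were measured in the same way: Slc1a3 was higher in MGv by both contrasts, but Aqp4 stayed at or below 1.58 CPM, and the list of 9 summed to 81.0 to 172 CPM in dLG, 119 to 180 in VPM and 127 to 234 in MGv, with 1 gene below 1 CPM everywhere. Aldoc, also on that list, was highest in VPM as Hes1 was, with means of 5.997, 34.5 and 18.0 CPM in dLG, VPM and MGv, and all VPM libraries were above all others. It was called for dLG against VPM (-2.51 ± 0.38, edgeR adjusted p = 0.00103) and dLG against MGv (-1.58 ± 0.40, 0.0178), and for VPM over MGv the change was 0.93 ± 0.40 (0.144). Hes1, Id2 and Id4, which astrocytes and progenitors also express, were lowest in MGv by their means. Of the other Id and Hes genes, Id1, Id3 and Hes6 had their highest means in MGv, at 5.87, 5.96 and 227 CPM. Hes5 averaged 2.44 CPM in dLG and 2.72 in both VPM and MGv. The part of glial RNA in the values of these genes was not tested.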

How the data were processed

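Expression was measured by RNA-seq in 11 libraries. The deposited values are raw counts of reads per Ensembl gene, made by the authors with no normalization and no pooling of replicates. Per the submitters' processing notes and the study's methods, FastQC 0.11.7, Trim Galore 0.6.1, cutadapt 2.3, STAR 2.7.0d, SAMtools 1.9 and featureCounts of Subread 1.6.4 were used with the mouse build mm10. Strand in counting and the treatment of multi-mapping reads were not given in the sources used here. cDNA was amplified from low input, so a count is not an independent molecule.

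Groups and replicate numbers were read from the sample titles. Symbols, positions and exon lengths came from GENCODE M21, which held 54723 of the 54752 identifiers. Of 33170 genes with a count, 15907 passed edgeR's filterByExpr and were fitted together over all 11 libraries (TMM scaling, quasi-likelihood F test, two-sided, Benjamini-Hochberg adjusted p under 0.1; R 4.3.3, edgeR 4.0.16, limma 3.58.1). CPM use TMM-scaled totals, and RPKM divide these by merged exon length. The common coefficient of biological variation was 28.2%. No pair of libraries of 1 nucleus was a duplicate (chi-square per degree of freedom of at least 14.0). On simulated counts for the 15907 genes, edgeR recovered 60.0% of genes changed 2-fold and 94.4% of those changed 4-fold between dLG and VPM, 50.0% and 89.5% between dLG and MGv, and 55.9% and 85.5% between VPM and MGv, and 12.6, 10.3 and 9.35% of the genes it called there were unchanged ones. The simulated spread followed only the trend with expression level, without a spread of each gene's own. No libraries were made low in Hspa8, and only 58 to 72 genes were changed per contrast and fold, fewer than were called in the data. These shares may therefore differ in the data.

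The 49 genes and the other gene lists were chosen with earlier results of these data known. Full values were given for genes enriched in 1 nucleus and for others called with an absolute log2 fold change of at least 1 and at least 1 CPM on average in the higher nucleus, and other lists were named by the same fold change, at most 4 a list; Arntl, Slc1a3, Aqp4, Fos, Sim2 and other marker genes named outside this rule were chosen after their values were seen. Alternatives were DESeq2 1.42.0, limma voom, DESeq2 size factors, dropping the count filter, requiring 10 counts in each library, thinned counts, an adjusted p under 0.05, a replicate block, only 2 nuclei in the fit, and each library left out. Leaving out the 3 libraries low in Hspa8, or a covariate for them, was added after seeing the data. Protein sequences were not used here, and some genes of the other lists are not reported here.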

Additional observations from a re-analysis of the deposited data

Results flagged for a closer look

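Of 64 sets of 4 replicate values (the 32 tested genes in dLG and in VPM), 5 held a library whose gap to its nearest replicate was above Dixon's 95% limit for 4 values on the log2 CPM scale. Chance flags about 1 in 20 sets of values without ties, and MGv, with 3 libraries, was not examined.

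Hes1 measured 90.7 CPM in dLG 4 against 44.5 to 47.7 in the other dLG libraries. That value was still below the lowest VPM library (208 CPM) and above the highest MGv library (5.44 CPM). Neurod1 measured 5.45 CPM in dLG 3, where the other dLG libraries had 9.92 to 11.0 CPM. Atoh7 was low in the same library, at 1.42 CPM against 2.68 to 3.01 CPM. The dLG 3 library also held hemoglobin RNA, with 347 CPM of Hbb-bs against at most 0.183 CPM in the other dLG libraries, and its part in these values was not tested. Without dLG 3, Neurod1 was called between dLG and VPM (log2 fold change 0.73, edgeR adjusted p = 0.0750). Neurod6 measured 0.344 CPM in dLG 2 and 0 in the other dLG libraries. With the others tied at 0, any count in dLG 2 gives the largest possible gap, so the ties alone set this flag. Arnt2 measured 53.5 CPM in VPM 3 against 41.0 to 41.7 CPM in its replicates. The libraries dLG 2 and VPM 3 are among those low in Hspa8, and the part of that difference in these values was not tested.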

How the results depend on the processing

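Over the 3 contrasts the 49 genes had 43 calls, and none of these differences changed sign in any alternative run. Of the calls, 25 (in 16 genes) were kept in every alternative that tested them and with any library left out, and 18 were lost in at least 1. At an adjusted p under 0.05, 7 members were called between dLG and VPM. Over all genes, limma voom called 4414 between dLG and VPM, and leaving out the 3 libraries low in Hspa8 gave 2618, against 1704. With 1 library left out at a time, all genes called ranged from 1093 to 2223 (dLG against VPM), 1886 to 3300 (dLG against MGv) and 2024 to 3235 (VPM against MGv). Members called ranged from 6 to 12, 11 to 17 and 11 to 15, and enriched members from 6 to 10. The cause of these shifts was not tested beyond the smaller number of libraries. With the replicate number as a block, 9, 15 and 15 members and 1464, 2169 and 2695 genes were called. Between dLG and VPM, Myc, Mxd1 and Arnt2 lost their calls under the block (adjusted p 0.132, 0.127 and 0.125). Hes6 lost its call between dLG and MGv (0.113), and between VPM and MGv Neurod1 (0.129) and Hey2 (0.104) lost theirs while Tcf3 (0.0939) and Clock were gained. Same-numbered libraries did not deviate together as a set: over 10 such pairs the deviations correlated at a mean r of 0.0155 (-0.203 to 0.483). Of these pairs, 2 were over 0.1, dLG 4 with VPM 4 (0.483) and dLG 1 with VPM 1 (0.185). In all, 4 of 11 libraries correlated best with a library of their own number. These values cannot tell whether some same-numbered libraries shared animals. DESeq2 called 13, 17 and 18 members, and voom 15, 17 and 16. The covariate for the 3 libraries low in Hspa8 gave 12, 17 and 18 members, 11 enriched members and 2394, 3295 and 3965 genes. The members it added were Hey1 between dLG and MGv and Tcf3 (0.0896), Id2 (0.0946) and Id4 (0.0443) between VPM and MGv. These 3 libraries deviated together, at r of 0.261 (dLG 2 and MGv 1), 0.268 (dLG 2 and VPM 3) and 0.230 (MGv 1 and VPM 3). Depth limits the 17 untested genes, of which 15 were below 1 CPM everywhere, and the MGv libraries had the lowest totals.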
